A study of Mus musculus with 3 samples.

Results

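The genes described are those of cholesterol and fatty acid synthesis, with the regulators that sense sterols, in mouse embryonic fibroblasts (MEFs). They were chosen by name, as 29 genes of the mevalonate and sterol pathway, of SREBP regulation and of fatty acid synthesis. All 29 were among the 21782 genes listed in the deposited table. The samples were 3 libraries of polyA+ RNA from asynchronous WT MEFs, and the methods describe 3 clones. MEFs are fibroblasts grown out of embryos, here taken at E12.5 and cultured in medium with 20% FBS, a serum that carries cholesterol and fatty acids of its own. All libraries share this genotype and this medium, and the sources used here give no strain and do not say whether the clones came from different embryos. With 1 condition, no effect of genotype or treatment could be tested, and the comparisons below are between genes or between the clones, each of which has 1 library.

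Cells make cholesterol from acetyl-CoA. The mevalonate enzymes build isoprenoid units, squalene synthase joins their products, and the sterol enzymes close the rings and trim them to cholesterol. The transcription factors SREBP1 and SREBP2 are held in the endoplasmic reticulum with SCAP and the INSIG proteins while sterols are plentiful. When sterols fall, SCAP escorts them to the Golgi, where they are cut free and switch on the synthesis genes. SREBP2 is known mainly for the cholesterol genes and SREBP1 for the fatty acid genes, and fibroblasts are among the cells in which this feedback was worked out.

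Total counts were between 22594316 and 25261357 per library. Levels are given as CPM (counts of a gene per 1000000 counts, with library sizes scaled by TMM), which serve to compare clones. To compare genes, CPM were divided by the kb of merged annotated exons of the gene (CPM per kb). All 12 fibroblast markers examined reached 1 CPM in each library. Of the 10 hepatocyte markers, 0 reached that level, and Alb, Ttr and Cyp7a1 had no count. Of the 10 adipocyte markers, 3 did, while Plin1 and Lep had no count. The clones were not alike in other cells and in growth. Adipocyte markers summed to 21.5, 98.1 and 35.2 CPM in clones 1, 2 and 3, though only 1 of the 10 was highest in clone 2. The part of such cells was not tested. The 13 macrophage markers summed to 418, 1990 and 348 CPM in clones 1, 2 and 3, and all 13 were highest in clone 2. The 10 proliferation markers summed to 487, 987 and 832 CPM and were all lowest in clone 1. In bulk RNA, fewer cells of a type and less RNA per cell cannot be told apart.

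Of the 29 genes, 28 reached 1 CPM in each of the libraries, against 52.2% of all genes listed. The exception was Hmgcs1. The summed counts of the 29 genes were 0.334%, 0.366% and 0.414% of the library in clones 1, 2 and 3. Scd2 alone made up 31.9% ± 1.34 (SD, n = 3) of these counts. Per kb, Scd2 stood above every other member in all clones, at 217 ± 29.0 CPM per kb. It was followed by Acly at 44.7 ± 2.29, Fasn at 43.7 ± 3.69 and Cyp51 at 43.4 ± 5.78 CPM per kb, and these 3 overlapped between clones. The lowest members with counts were Abca1 at 1.92 ± 0.397, Stard4 at 1.80 ± 0.377 and Tm7sf2 at 1.76 ± 0.0528 CPM per kb, which also overlapped. The order depends on the length used. Per kb of the transcript whose coding sequence is longest, Fdps came after Scd2, at 91.8 ± 13.3 CPM per kb, and Tm7sf2, at 5.28 ± 0.158, stood above Stard4 and Abca1 in every clone. By role, the median level was 43.7 CPM per kb for fatty acid synthesis, 23.5 for SREBP control, 11.9 for the squalene and sterol steps, 11.2 for the mevalonate steps and 1.92 for sterol transport and LXR. Hmgcs1 was kept at 0 in the mevalonate median.

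**Figure D1:**
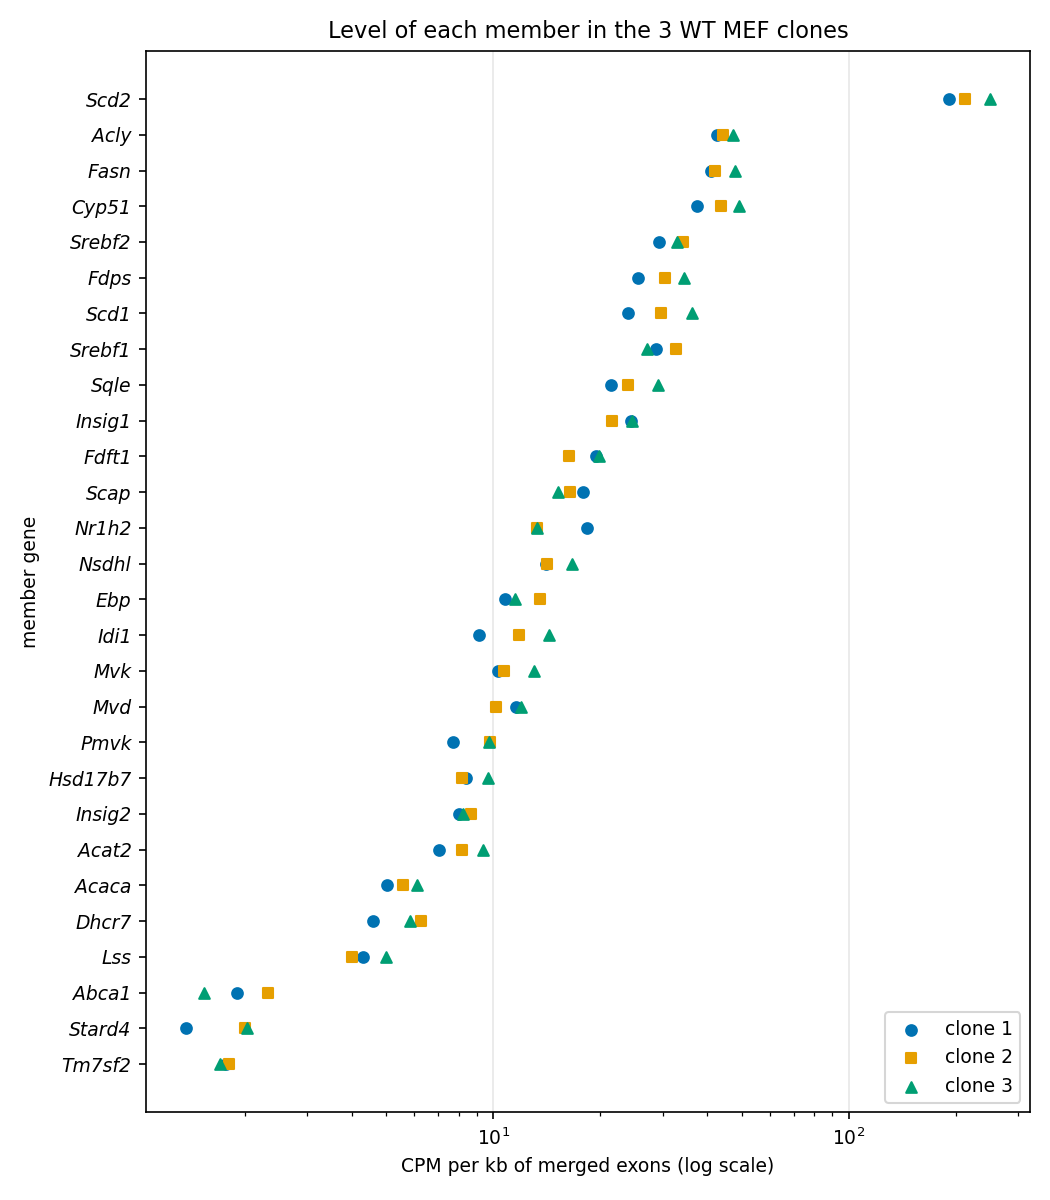
Level of each member in CPM per kb of merged exons (log scale), with 1 point per clone and genes ordered by their mean; Hmgcs1, listed at 0, is left out. Scd2 lies at 192 to 249 CPM per kb, apart from all other members, which lie at or below 49.0.

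The mevalonate steps start with Acat2, the cytosolic thiolase that joins acetyl-CoA units. It had 446, 469 and 603 counts in clones 1, 2 and 3, or 18.0, 20.8 and 23.9 CPM. Its count is uncertain, since 52.9% of the 86-nt stretches of its transcript also match another gene within 2 mismatches, mainly Acat3. Mvk, the mevalonate kinase, stood at 27.5, 28.7 and 34.8 CPM, highest in clone 3. Pmvk, the next kinase, stood at 13.2, 16.8 and 16.7 CPM, with clone 1 below the other two. Mvd, the decarboxylase that gives isopentenyl diphosphate, stood at 21.5, 18.9 and 22.3 CPM. Per kb, Mvk (11.3 ± 1.45 CPM per kb), Mvd (11.2 ± 0.934) and Idi1 (11.8 ± 2.63) could not be separated.

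Idi1, the isomerase that activates isopentenyl diphosphate, had the widest spread of the group, with 793, 935 and 1272 counts, or 31.9, 41.5 and 50.4 CPM. Clone 3 was 1.58 times clone 1. Fdps, the synthase of farnesyl diphosphate, had 2679, 2887 and 3654 counts, or 108, 128 and 145 CPM, with clone 3 highest and clone 1 lowest as for Idi1. Matches to other genes were most extensive here, as 90.8% of the 86-nt stretches of Fdps also match transcripts of other loci such as Gm43738 and Gm3571. The figure was 28.5% for Idi1. The level of Fdps per kb also depends on the length used, with 30.1 ± 4.38 CPM per kb of merged exons (4208 bp) and 91.8 ± 13.3 CPM per kb of its longest-coding transcript (1382 nt).

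Hmgcs1, the cytosolic HMG-CoA synthase, is the member whose value cannot be read as expression. It was listed at 0 counts in all 3 clones. Counting error alone would allow a level of up to 3 counts, which is 0.121, 0.133 and 0.119 CPM in clones 1, 2 and 3. In GRCm38 the gene lies on chromosome 13 from 119690379 to 119708260 on the plus strand, and 11.9% of its 86-nt stretches match another transcript. Within 500 kb of it, 11 protein-coding genes are listed, and 6 that lie next to each other were at 0 in every clone. They are Ccl28, Hmgcs1, Zfp131, AF067063, Tcstv1 and B020031M17Rik. A count of 0 in every clone was not rare, as 5488 of all 21782 genes listed had it. The 5 listed genes on the other side of Ccl28 were counted, among them Paip1 at 1310, 1377 and 1476 counts and Nnt at 2133, 1961 and 2302. Ndufs5, a complex I gene chosen after its values were seen, was also listed at 0 in every clone, the only such gene among 36 Nduf genes. The cause of these zeros was not tested, and Hmgcs1 is left out of the comparisons of clones that follow. In the sums and in the medians by role it was kept at 0.

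**Figure D2:**
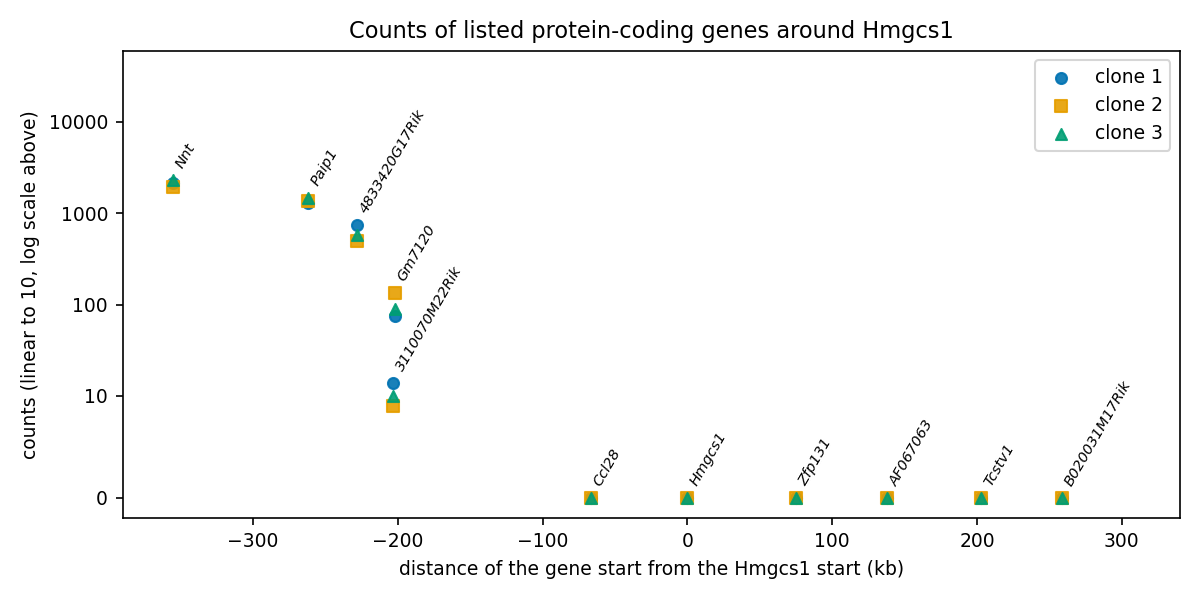
Counts of the 11 listed protein-coding genes within 500 kb of Hmgcs1 against the distance of their start from the Hmgcs1 start in kb, with 1 point per clone; the count axis is linear to 10 and logarithmic above. The 6 genes from Ccl28 onwards lie at 0, and the 5 genes before it were counted in all clones.

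Among the squalene and sterol steps, Fdft1, the squalene synthase, had 2043, 1556 and 2122 counts, or 82.2, 69 and 84 CPM, with clone 2 lowest. Exons of Ctsb on the opposite strand overlap 18.3% of its exon length, and 39.5% of its 86-nt stretches match another gene. Sqle, the squalene epoxidase and a control point of the pathway, stood at 119, 132 and 161 CPM. Lss, which closes the rings to lanosterol, stood at 46.3, 43.2 and 54.1 CPM. Cyp51, the lanosterol demethylase, had 4105, 4348 and 5460 counts, or 165, 193 and 216 CPM, and was the highest of this group per kb of merged exons.

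Of the later sterol steps, Nsdhl stood at 40.1, 40.5 and 47.7 CPM and Hsd17b7 at 42.7, 41.7 and 49.3 CPM, both of them enzymes of sterol demethylation and both highest in clone 3. Ebp, the sterol isomerase, stood at 24.9, 31.2 and 26.5 CPM. Dhcr7, the reductase that yields cholesterol, stood at 26.7, 36.5 and 33.9 CPM. These last 2 were highest in clone 2. Tm7sf2, a sterol reductase, varied least of all members, at 7.81, 7.98 and 7.52 CPM. Like Fdps and Tm7sf2, Hsd17b7 and Dhcr7 have merged exons far longer than their coding transcript. Hsd17b7 stood at 8.73 ± 0.813 CPM per kb of merged exons and 30.8 ± 2.87 per kb of transcript, and Dhcr7 at 5.56 ± 0.868 and 19.6 ± 3.06.

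Of the fatty acid genes, Acly, which makes cytosolic acetyl-CoA from citrate, had 5605, 5261 and 6296 counts, or 226, 233 and 249 CPM. Acaca, the acetyl-CoA carboxylase that makes malonyl-CoA, stood at 85.8, 95 and 104 CPM, although 61.3% of its 86-nt stretches also match Gm5182. Fasn, the fatty acid synthase, had 11167, 10390 and 13247 counts, or 449, 461 and 524 CPM. In each of these genes clone 3 was highest and clone 1 lowest. Scd1 and Scd2 are desaturases that put a double bond into saturated fatty acids. Scd1 had 2910, 3265 and 4488 counts, or 117, 145 and 178 CPM, and Scd2 had 26011, 26133 and 34334 counts, or 1047, 1159 and 1359 CPM, in the same order of clones.

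The Scd genes lie side by side on chromosome 19 of GRCm38, Scd3 from 44203269, Scd2 from 44293674, Scd4 from 44333092 and Scd1 from 44394455. Their use was very unequal. Per kb, Scd2 took 88.9%, 87.8% and 87.3% of the counts of Scd1 and Scd2 in clones 1, 2 and 3 (88.0% ± 0.837; SD, n = 3). In counts, the share in clone 1 was 89.9% (95% Wilson interval 89.6 to 90.3, counting error only). Scd3 had 7, 1 and 6 counts and Scd4 had 13, 5 and 8. Of the 86-nt stretches, 6.70% of those of Scd1 and 5.61% of those of Scd2 match another gene. The carboxylase pair was also one-sided, with Acaca at 96.6% ± 2.01 of Acaca and Acacb per kb, and Acacb at 64, 14 and 60 counts.

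Srebf1 and Srebf2, the genes of both SREBPs, differed little in level. Srebf1 had 4022, 4158 and 3848 counts, or 162, 184 and 152 CPM, and Srebf2 had 5223, 5539 and 5972 counts, or 210, 246 and 236 CPM. Per kb, Srebf2 took 50.5%, 51.1% and 54.9% of their sum (52.1% ± 2.40; SD, n = 3), less than 1 SD above an equal share. Per kb of the longest-coding transcripts it took 54.1% ± 2.39, more than 1 SD above. Scap, the escort protein, stood at 133, 122 and 113 CPM, highest in clone 1. Of the retention factors, Insig1 stood at 75.4, 66.7 and 76.2 CPM and Insig2 at 27.7, 30.0 and 28.6 CPM. Insig1 took 75.3%, 71.4% and 75.0% of the pair per kb (73.9% ± 2.18), above an equal share in every clone.

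Stard4, a cytosolic carrier of cholesterol, had 190, 253 and 287 counts, or 7.65, 11.2 and 11.4 CPM, with clone 1 below the other two. Abca1, which exports cholesterol to lipoprotein particles, had 489, 545 and 403 counts, or 19.7, 24.2 and 16 CPM. Its order of clones, with clone 2 highest and clone 3 lowest, was also that of the summed macrophage markers, and the part of these cells in it was not tested. Srebf1 and Tm7sf2 had this order of clones too, so it was not particular to Abca1. Nr1h2, the gene of the sterol receptor LXR-beta, had 1529, 1008 and 1127 counts, or 61.5, 44.7 and 44.6 CPM, with clone 1 apart. Its paralog Nr1h3, the gene of LXR-alpha, had 6, 6 and 3 counts, so that Nr1h2 took 99.4% ± 0.219 of the pair per kb.

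**Figure D3:**
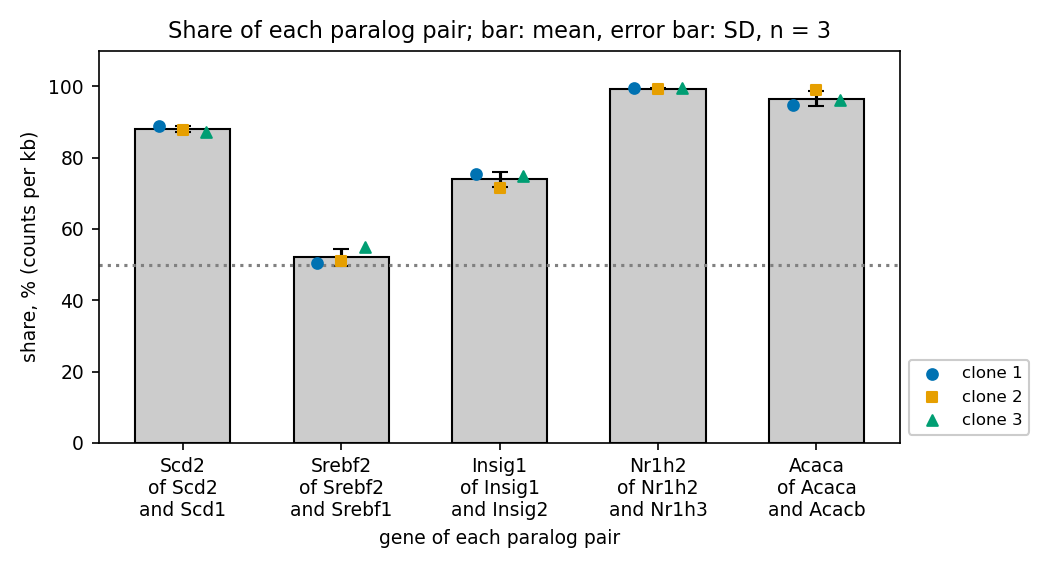
Share of the named gene in the summed counts per kb of a paralog pair, in percent; bars are means, error bars are SD (n = 3) and points are clones. All points lie above the dotted line at 50%, those of Srebf2 closest to it at 50.5% to 54.9%.

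To ask which members differed between clones, the counts of each gene were set against the shares given by the scaled library sizes in a chi-square test, with Benjamini-Hochberg adjustment over the 12218 genes that had 10 or more counts in each library. The test compares 3 libraries, so a clone, its dish and its library preparation cannot be told apart. Of the 28 members tested, 25 differed between clones with an adjusted p-value under 0.05 (89.3%), against 62.5% of all genes tested. The test reaches smaller changes in genes with more counts, so this share depends on the level of the members. Mvd (adjusted p = 0.0542), Insig2 (0.4) and Tm7sf2 (0.871) did not pass the chi-square test. The differences were small. Only Idi1 (1.58-fold from the lowest to the highest clone), Scd1 (1.52-fold) and Abca1 (1.51-fold) passed with at least 1.5-fold, which is 10.7% of the members tested against 18.6% of all genes. Without clone 1 only Abca1 passed, against 7.43% of all genes tested. Without clone 2 only Idi1 and Scd1 did, against 7.77%, and without clone 3 none did, against 15.6%, so the contrast with all genes depended on the libraries kept. The median coefficient of variation between clones was 11.8% over the members and 11.3% over all genes tested. These medians were 9.56% and 6.91% without clone 1, 12.9% and 9.63% without clone 2, and 9.07% and 11.5% without clone 3.

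Most of the synthesis enzymes among the members were highest in the same clone. Of all members tested, 17 differed and were highest in clone 3 (60.7%), against 15.3% of all genes tested. For clone 2 there were 6 (21.4% against 23.5%) and for clone 1 there were 2 (7.14% against 23.8%). These shares also depend on how often members pass the test. Passing or not, 18 of the 28 members tested were highest in clone 3, against 3329 of the 12218 genes tested. The 17 comprised 4 mevalonate genes (Acat2, Mvk, Idi1 and Fdps), 6 squalene and sterol genes (Fdft1, Sqle, Lss, Cyp51, Nsdhl and Hsd17b7), all 5 fatty acid genes, and Insig1 and Stard4. Pmvk, Ebp and Dhcr7 were the only enzymes that differed and were highest elsewhere, in clone 2. The test does not say which clone is highest, and some orders rest on close values. Clone 3 was close to clone 1 in Insig1 (76.2 and 75.4 CPM) and Fdft1 (84 and 82.2 CPM). It was close to clone 2 in Stard4 (11.4 and 11.2 CPM) and, below it, in Pmvk (16.7 and 16.8 CPM). The median log2 ratio of clone 3 to clone 1 was 0.31 over the 20 enzymes tested and 0.01 over all genes tested, and that of clone 3 to clone 2 was 0.21 and 0.00. Summed, the 21 enzymes, with Hmgcs1 at 0, stood at 2700, 2943 and 3388 CPM, and without Scd2 at 1653, 1784 and 2028 CPM.

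The regulators were divided. Insig1 was highest in clone 3, Srebf1 and Srebf2 in clone 2 and Scap in clone 1, and the summed level of the SREBP control genes was 608, 649 and 607 CPM. The summed macrophage, adipocyte and proliferation markers were highest in clone 2. Of the 7 epithelium markers, 6 were highest in clone 3, with sums of 6.04, 4.21 and 10.3 CPM and 1 marker at 1 CPM or more in each library, and the part of such cells was not tested. Clone 1 was lowest in 15 of the 18 differing enzymes, against 3306 of all 7642 differing genes. It was also lowest in all 10 proliferation markers, and the part of growth in the result was not tested. Of the 20 enzymes tested, 15 differed and were highest in clone 3. This count was 16 without clone 2, where 24.0% of all genes differed and were higher in clone 3 than in clone 1, and 15 without clone 1, against 15.1%. Among the 15 tested enzymes with under 10% of shared 86-nt stretches it was 10. Without clone 3, 12 enzymes differed, of which 11 were higher in clone 2 and 1 in clone 1, while 28.4% of all genes differed and were higher in clone 2. These checks were chosen after seeing the data.

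**Figure D4:**
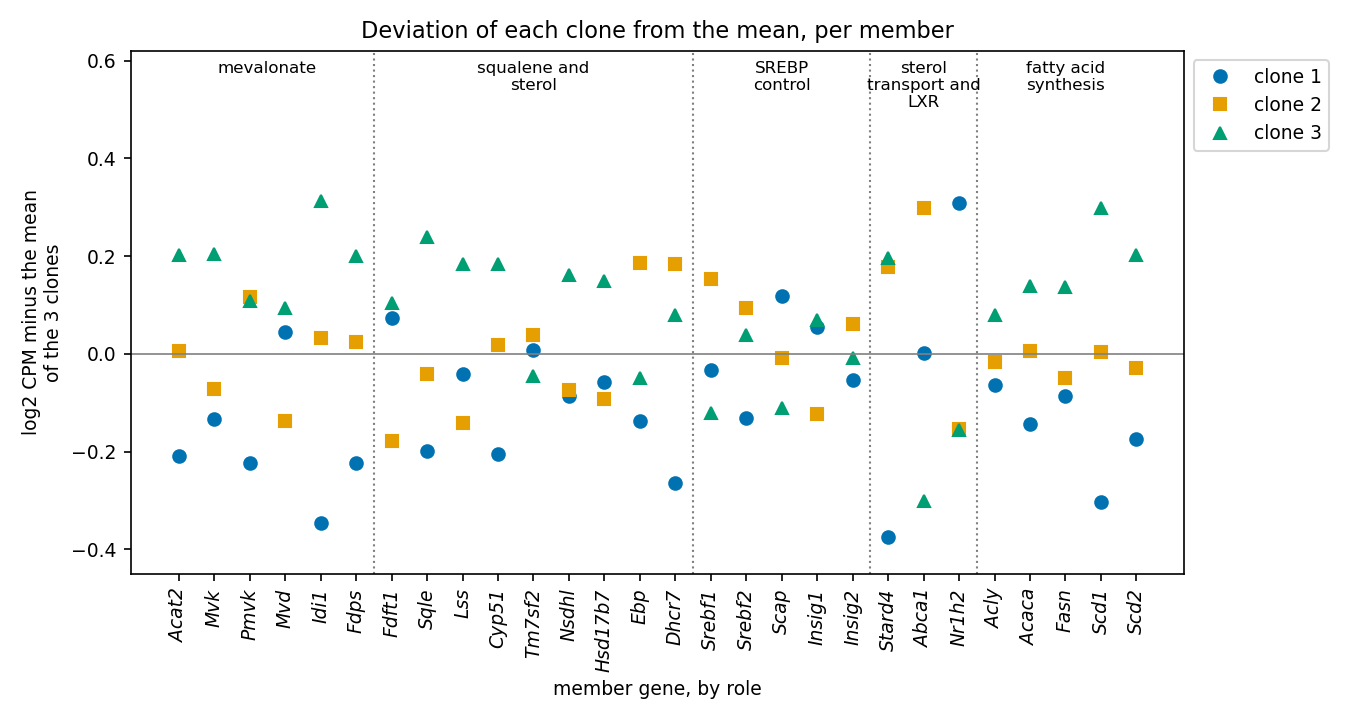
Log2 CPM of each clone minus the mean of the 3 clones for the 28 members with counts, by role. Clone 3 lies highest for 16 of the 20 synthesis enzymes, among them all 5 fatty acid genes, and for Insig1 and Stard4 outside them. Of all 12218 genes tested, 3329 were highest in clone 3.

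Other genes of the pathway were counted from 3 lists, to be read against the shares of all genes tested, 62.5% differing and 23.8%, 23.5% and 15.3% differing and highest in clones 1, 2 and 3. Of the other sterol synthesis genes, 8 of 10 tested differed between clones, with 1, 4 and 3 of them highest in clones 1, 2 and 3. Of the genes of sterol uptake, transport and SREBP control, 17 of 22 differed, with 4, 10 and 3 highest in clones 1, 2 and 3. Of the other fatty acid genes, 20 of 23 differed, with 4, 9 and 7. Of the member enzymes that differed, 3 were highest in clone 2 and 15 in clone 3. For the other sterol synthesis and fatty acid genes these counts lay close together, at 4 against 3 and 9 against 7. Their median log2 ratios of clone 3 to clone 1 were 0.19 and 0.12, and those of clone 3 to clone 2 were -0.11 and 0.04. Over the 3 lists, the highest genes per kb were Lrp1, an endocytic receptor, at 124 ± 27.3 CPM per kb, Tecr, a reductase of fatty acid elongation, at 100 ± 8.24 CPM per kb, and Hsd17b12, which acts in the same cycle, at 99.3 ± 8.31 CPM per kb.

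SREBPs are known to bind sterol regulatory elements and to act together with NF-Y and Sp1, so promoters were searched for these letters. RefSeq promoters of GRCm38.p6, from 250 bases before to 50 after the annotated start, were at hand for 23 members, and Fdps, Fdft1, Sqle, Stard4, Scd1 and Scd2 have no entry. A gene was counted if any of its promoters held the letters. On either strand, the NF-Y box CCAAT was found for 18 of the 23 members (78.3%), against 41.1% of 27025 genes and 43.1% of the 8708 among them that reached 1 CPM in each library. The GC box GGGCGG was found for 19 (82.6%), against 38.2% of all and 71.6% of expressed genes. The E-box CACGTG was found for 5 (21.7%), against 8.09% and 12.1%. A sterol regulatory element, searched as TCACNCCAC, was found for Hmgcs1 alone (4.35%), against 1.44% of all and 1.38% of expressed genes. Only exact matches in these windows were counted, so elements with other letters or elsewhere would be missed. These are matches of letters, described without a test.

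The Hmgcs1 match is shown because it was the only one, at chr13:119690194-119690242 on the plus strand, with the motif in capitals, beginning 137 bases before the start.
Hmgcs1: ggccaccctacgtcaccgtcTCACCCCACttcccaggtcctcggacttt

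To show what these matches look like, 120 bases are printed for enzymes of each branch that were highest in clone 3 (Mvk, Lss, Nsdhl, Acly and Fasn) and for Srebf2, which was not. They are examples only. Among the stretches not printed, that of Idi1, also highest in clone 3, held 0 boxes of either kind. It ends 105 bases before the RefSeq start, and the wider promoter window of Idi1 counted above held both kinds. Those of Mvd and Insig2, which did not pass the chi-square test, held 2 NF-Y boxes each. Whether boxes go with the order of clones was not tested. Each stretch ends before both the RefSeq and the GENCODE start of the gene. Capitals mark CCAAT and GGGCGG on either strand (ATTGG and CCGCCC on the other), and in Fasn an ATTGG overlaps a CCAAT. The stretches are chr5:114444149-114444268 (plus strand) for Mvk, chr10:76531468-76531587 (plus strand) for Lss, chrX:72918401-72918520 (plus strand) for Nsdhl, chr11:100528001-100528120 (minus strand) for Acly, chr11:120824548-120824667 (minus strand) for Fasn and chr15:82147061-82147180 (plus strand) for Srebf2.
Mvk: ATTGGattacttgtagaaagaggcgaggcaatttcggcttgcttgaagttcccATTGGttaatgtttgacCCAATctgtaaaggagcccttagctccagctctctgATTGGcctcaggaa
Lss: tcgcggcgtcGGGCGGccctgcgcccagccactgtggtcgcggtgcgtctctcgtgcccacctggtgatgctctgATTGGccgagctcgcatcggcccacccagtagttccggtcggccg
Nsdhl: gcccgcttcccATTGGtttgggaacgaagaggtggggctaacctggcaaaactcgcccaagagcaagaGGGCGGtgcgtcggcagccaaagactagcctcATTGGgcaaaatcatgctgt
Acly: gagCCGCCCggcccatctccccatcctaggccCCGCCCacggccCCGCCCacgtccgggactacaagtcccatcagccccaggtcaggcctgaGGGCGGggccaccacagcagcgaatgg
Fasn: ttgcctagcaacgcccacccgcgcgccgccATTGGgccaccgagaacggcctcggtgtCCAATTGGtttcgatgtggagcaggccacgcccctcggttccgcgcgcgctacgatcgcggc
Srebf2: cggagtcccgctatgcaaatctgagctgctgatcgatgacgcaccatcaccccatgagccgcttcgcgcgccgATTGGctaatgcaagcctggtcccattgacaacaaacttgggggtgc
Within these stretches Mvk has 4 NF-Y boxes, Fasn 3, Nsdhl 2, Lss 1, Srebf2 1 and Acly 0. Acly has 4 GC boxes, and Nsdhl and Lss have 1 each. In the wider promoter windows counted above, Acly also held an NF-Y box, and Mvk and Srebf2 a GC box.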

How the data were processed

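PolyA+ RNA of asynchronous WT MEFs was sequenced by the authors as 86-nt single-end reads and aligned allowing up to 2 mismatches and 5 multi-hits. Tools named in the submitters' processing notes are SAMtools 0.1.16, TopHat2 2.0.0 and Bowtie 0.12.7. As deposited, each value is a whole-number count of reads for a gene, made by the authors with HTSeq and not normalized. The methods name mm10, whereas the submitters' processing notes name mm9. The annotation, HTSeq version and strand setting are not given in the sources used here, so genes with overlapping or near-identical copies are uncertain. Here, counts were scaled by TMM (edgeR 4.0.16, R 4.3.3), and exon lengths and positions came from GENCODE M21 (GRCm38), which matched 99.7% of the symbols. Clones were compared by chi-square (2 degrees of freedom) with Benjamini-Hochberg adjustment over all genes tested, checked on simulated data. The simulated counts held counting error and set changes only, so the check does not cover other spread between libraries. The chi-square test measures only the spread between libraries, which may be technical. Shares have 95% Wilson intervals. At these depths 1 count is 0.0396 to 0.0443 CPM. No pair of libraries was within sampling noise, since at least 31.7% of genes differed in each. Alternatives were DESeq2 1.42.0 size factors, total counts, other count thresholds, thinned counts, other lengths and leaving out each clone. All members are named. Of the other pathway genes, named are paralogs of members and the 3 highest per kb. The rule also named genes differing by 2-fold or more at a mean of at least 10 CPM, which are not reported here. Members, lists and tests were chosen with earlier results of these data known. Sequences are from RefSeq. Python 3.11.15, numpy 2.4.6, pandas 2.3.3, scipy 1.17.1 and matplotlib 3.10.9 were used.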

Additional observations from a re-analysis of the deposited data

How the results depend on the processing

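The number of members at 1 CPM or more (26 to 28), the number differing between clones (19 to 26), the members' median coefficient of variation and the summed levels by role kept their size under every scaling, threshold and left-out clone tried. The values over all genes tested varied with the setting. Of all genes, 31.7% (without clone 1) to 63.9% (total counts) differed, and their median coefficient of variation was 6.91% (without clone 1) to 15.5% (no count filter). The number differing by 1.5-fold or more was 3 under the other scalings and thresholds, though with total counts or thinned counts Stard4 took the place of Abca1, and 0 to 2 with a clone left out. The matching share of all genes tested was 16.2% to 19.6%, and 7.43% to 15.6% with a clone left out. Of the single genes, Mvd passed the chi-square test with total counts and without clone 1, and 6, 3 and 6 of the members that had passed no longer did without clones 1, 2 and 3, where 2 libraries remain. The choice of length moved these values. In counts not divided by length, the shares were 89.1% for Scd2, 58.1% for Srebf2 and 71.6% for Insig1, and the last was also 71.6% per kb of the longest-coding transcript. Per kb of that transcript, the medians were 13.0 CPM per kb for the mevalonate steps, 19.7 for the squalene and sterol steps, 29.0 for SREBP control and 47.6 for fatty acid synthesis. Not divided by length, they were 20.9, 44.6, 123 and 236 CPM, and 19.9 CPM for sterol transport and LXR. The mevalonate medians include Hmgcs1 at 0. The count of enzymes that differed and were highest in clone 3 was 15 to 17 under all scalings and thresholds and without clone 1 or 2, chosen after seeing the data. Over the same settings, the share of all genes tested that did so ran from 11.4% without a count filter to 24% without clone 2. It was 21.6% with total counts, where the 17 arose. Depth limits most the scarce paralogs Nr1h3, Scd3 and Scd4, with at most 13 counts.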
